A study of Mus musculus with 6 samples.

Results

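The transcripts described here encode the enzymes that make serine and pass its one-carbon unit through folate. The set was defined by gene symbol and listed 10 genes: Phgdh, Psat1 and Psph for serine synthesis, Shmt1 and Mthfd1 for the cytosolic folate enzymes, and Shmt2, Mthfd2, Mthfd2l, Mthfd1l and Aldh1l2 for the mitochondrial ones. Of the 10, 9 were measured among 23185 named probe sets, and Phgdh is not analysed here. The cells were a line of group 2 innate lymphoid cells (ILC2s), lymphocytes that lack rearranged antigen receptors and make type 2 cytokines, from C57BL/6J mice. The 3 arrays labelled Myc knockout held RNA of cells transduced with a lentiviral CRISPR construct whose guide targets Myc. The 3 control arrays held RNA of cells given the same kind of construct with a non-targeting guide. In both groups the medium held 10 ng/ml of the cytokines IL-33 and IL-2, and cells positive for the construct's GFP were sorted on day 6. Nothing in the labels tells separate transductions or cultures from repeats of 1 culture, so the p-values cover the spread between these samples only, and that spread may be technical.

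Serine is made in the cytosol from a glycolytic intermediate by the dehydrogenase PHGDH, the aminotransferase PSAT1 and the phosphatase PSPH. The hydroxymethyltransferases SHMT1 (cytosol) and SHMT2 (mitochondrion) move a carbon of serine onto tetrahydrofolate and leave glycine. In mitochondria MTHFD2 or MTHFD2L oxidises this unit and MTHFD1L releases it as formate, which MTHFD1 in the cytosol reattaches to folate for purine and thymidylate synthesis. ALDH1L2 instead oxidises formyl-tetrahydrofolate to CO2 in mitochondria and makes NADPH. Proliferating lymphocytes are known to use this pathway, and MYC and ATF4 are known regulators of several of its genes.

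Levels are given as log2 values from RMA, a method that brings Affymetrix arrays to a common scale, and differences, arrays labelled Myc knockout minus control, come from limma, a linear model that pools the spread of all genes. Myc itself was not lower where a knockout was labelled. Arrays labelled Myc knockout had log2 values of 9.55, 9.79 and 9.73, against 9.27, 9.33 and 9.39 in controls (limma's adjusted p = 0.127), so its mRNA went against the label. An mRNA's level does not show whether the gene holds a small insertion or deletion, and the cause of the higher Myc value was not tested. Every direction below rests on the labels. The ILC2 markers Gata3, Il7r, Id2, Icos, Il2ra, Il5 and Il13 had means between 9.19 and 11.6 in the arrays labelled Myc knockout and between 9.42 and 11.4 in controls, while Thy1 (3.32 in the arrays labelled Myc knockout, 3.21 in controls) and Rora (3.99 and 4.01 in the same groups) lay near the array medians of 3.32 to 3.38. Klrg1 had means of 7.36 in the arrays labelled Myc knockout and 7.57 in controls, and Bcl11b means of 4.76 and 5.04 in the same groups. In limma an unadjusted p under 0.05 was reached by 6 of these 11 ILC2 markers, 4 of them higher and 2 lower. Of all genes 14.9% reached it (6.97% higher, 7.91% lower). Il5 was higher after adjustment over all genes (log2 difference 0.49 ± 0.061 SE, limma's adjusted p = 0.0386). Gata3 and Il7r differed by −0.25 ± 0.066 and −0.22 ± 0.076 (SE), with groups apart. The T cell gene Cd3e had means of 1.98 in the arrays labelled Myc knockout and 2.15 in controls, beside lower quartiles of 2.05 to 2.13, but Cd3g (5.04 and 5.47 in the same groups) and Cd8a (4.93 and 4.73) lay above the array medians. Cd3g differed by −0.43 ± 0.13 (SE), with groups apart. In the arrays labelled Myc knockout, the summed log2 values ran from 19.7 to 21.0 for 6 T cell markers, 6.74 to 7.21 for 3 B cell markers, 7.25 to 7.42 for 3 NK cell markers, 6.16 to 6.62 for 3 ILC3 markers and 10.7 to 11.4 for 3 myeloid markers. In controls they ran from 20.1 to 21.3 for the T cell, 6.89 to 7.06 for the B cell, 6.72 to 7.16 for the NK cell, 5.07 to 5.41 for the ILC3 and 11.9 to 12.0 for the myeloid markers. The sums did not overlap for the NK cell, ILC3 and myeloid markers. Singly, groups were apart for 0 of the 3 NK cell markers, 1 of the 3 ILC3 markers and 1 of the 3 myeloid markers, beside 19.8% of all genes. Ncr1, Eomes, Il23r and Il22 had means of 2.04, 1.95, 1.83 and 0.80 in the arrays labelled Myc knockout. In controls these were 1.82, 1.85, 1.65 and 0.77, all below the lower quartiles, so these sums say little about cell content. The myeloid marker Itgam differed by −0.63 ± 0.10 (SE; limma's adjusted p = 0.0767). The ILC3 marker Il17a, a cytokine gene, was higher after adjustment over all genes (log2 difference 0.95 ± 0.11 SE, limma's adjusted p = 0.0353). Its means were 3.79 in the arrays labelled Myc knockout and 2.84 in controls, on either side of the array medians. The part of these shifts in the enzyme differences was not tested.

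The cytosolic folate enzymes were higher in the arrays labelled Myc knockout, Aldh1l2 was lower, and the other mitochondrial enzymes and the serine synthesis enzymes lay closer to 0. None of the 9 measured genes passed over all genes in limma (Benjamini-Hochberg adjusted p under 0.05), a threshold that 0.453% of all genes passed. At an unadjusted p under 0.05, 3 were higher (Shmt1, Mthfd1 and Mthfd2) and 1 was lower (Aldh1l2), beside 14.9% of all genes (6.97% higher, 7.91% lower). All 9 were at or above the median level. When only genes at or above that level were fitted, 24% of them reached this p, with the same enzymes called. A positive difference was seen in 6 of the 9, beside 52.2% of all genes. The 3 values of one group lay wholly above or below those of the other for 5 of the 9 genes, 4 higher and 1 lower, against 19.8% of all genes (9.25% higher, 10.6% lower). The median log2 difference of the 9 was 0.054, beside 0.0077 over all genes. In bulk RNA, a change in the share of cells and a change per cell cannot be told apart.

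**Figure D1:**
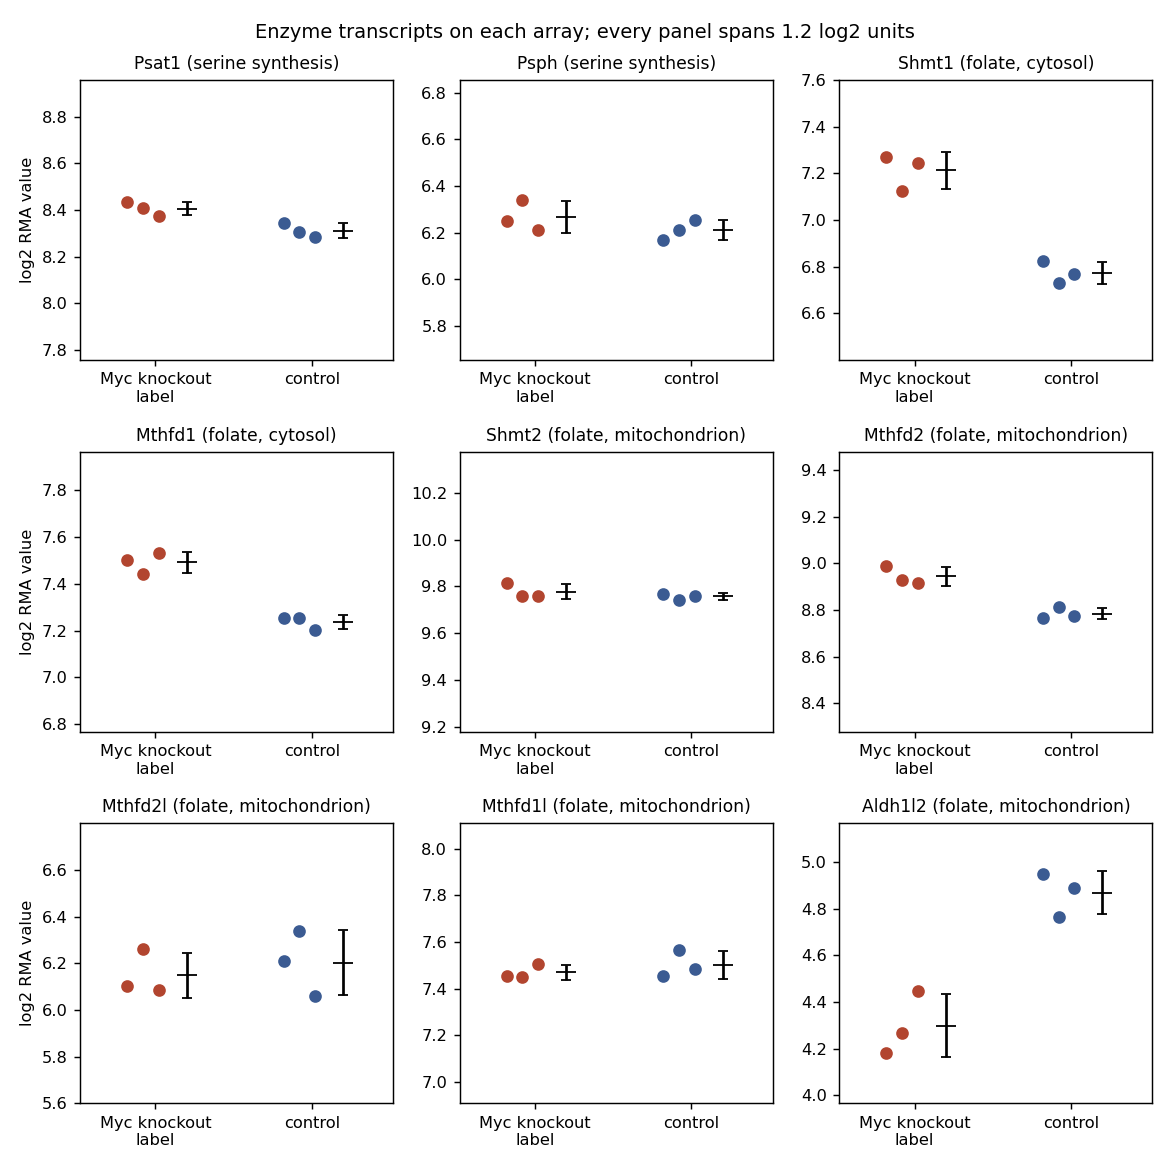
Log2 RMA values of the 9 measured enzyme transcripts on each array (points), with mean ± SD beside them (n = 3 arrays per group), arrays labelled Myc knockout left and controls right. Shmt1, Mthfd1, Mthfd2 and Psat1 sit higher and Aldh1l2 lower in all 3 arrays labelled Myc knockout, and the groups overlap in the other 4 panels.

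Promoter sequence is shown for the cytosolic pair Shmt1 and Mthfd1, which had the largest positive differences, and for Shmt2, the mitochondrial counterpart of Shmt1. The 250 bases before the RefSeq start site are given on the gene's own strand (GRCm38.p6), Shmt1 at chr11:60811266-60811515 on the minus strand, Mthfd1 at chr12:76254982-76255231 on the plus strand and Shmt2 at chr10:127522445-127522694 on the minus strand. Capitals mark the CCAAT box (CCAAT) and the GC box (GGGCGG), a site of SP1-type factors, on either strand; in Shmt1 a pair of GC boxes overlaps.
Shmt1: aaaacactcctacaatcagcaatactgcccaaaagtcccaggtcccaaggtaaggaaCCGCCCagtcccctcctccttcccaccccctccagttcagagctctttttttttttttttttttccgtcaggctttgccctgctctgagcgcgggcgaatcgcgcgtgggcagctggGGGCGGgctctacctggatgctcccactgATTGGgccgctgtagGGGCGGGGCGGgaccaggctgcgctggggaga
Mthfd1: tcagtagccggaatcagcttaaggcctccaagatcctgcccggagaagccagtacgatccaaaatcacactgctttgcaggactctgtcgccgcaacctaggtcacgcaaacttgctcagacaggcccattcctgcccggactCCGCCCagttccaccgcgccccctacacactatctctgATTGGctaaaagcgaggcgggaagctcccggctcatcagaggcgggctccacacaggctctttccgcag
Shmt2: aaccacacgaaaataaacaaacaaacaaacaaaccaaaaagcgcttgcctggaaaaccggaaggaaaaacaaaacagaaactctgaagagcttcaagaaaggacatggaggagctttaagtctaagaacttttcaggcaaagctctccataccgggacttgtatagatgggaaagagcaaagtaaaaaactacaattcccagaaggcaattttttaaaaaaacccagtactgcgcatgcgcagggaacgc

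In these windows Shmt1 held 1 CCAAT box and 4 GC boxes, Mthfd1 held 1 of each, and Shmt2 held 0 of either. Among the other measured enzymes, Psph, whose groups overlapped, held 2 CCAAT boxes and 3 GC boxes. Mthfd1l held 0 and 1, Mthfd2 held 3 and 0, and Mthfd2l held 0 of either. For Psat1, 1 promoter held 2 CCAAT boxes and the other 1 GC box. Any link between boxes and differences was not tested. Of all 32851 mouse promoters of this length, 33.8% held a CCAAT box and 32.7% a GC box. The table gave 10 promoters for 9 of the listed genes, with a pair for Psat1, and 6 of the 10 held a CCAAT box and 5 a GC box. The E-box CACGTG, the letters MYC-MAX dimers are known to bind, was in 0 of the 10 and in 6.02% of all promoters. The element TGATGNAAN, known to bind ATF4 dimers, was in 0 of the 10 and in 3.44% of all promoters. Both strands were searched. A match is only a match of letters in this window, and its absence shows nothing about a factor.

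Shmt1, the cytosolic serine hydroxymethyltransferase gene, had log2 values of 7.27, 7.12 and 7.24 in the arrays labelled Myc knockout, against 6.82, 6.73 and 6.77 in controls. Every array labelled Myc knockout lay above every control, and the gap between the groups was wider than the range within either. The means were 7.21 ± 0.078 and 6.77 ± 0.047 (SD, n = 3 each), a 1.35-fold difference (log2 difference 0.44 ± 0.065 SE, 95% confidence interval 0.28 to 0.59). Adjusted over all genes, limma's p for Shmt1 was 0.0602 (unadjusted 0.000351), short of the threshold. It stood at the 98.2 percentile of log2 differences over all genes.

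Mthfd1, the cytosolic enzyme that attaches formate to folate and interconverts the folate forms, had log2 values of 7.50, 7.44 and 7.53 in the arrays labelled Myc knockout, against 7.25, 7.25 and 7.20 in controls. Again the groups did not overlap. The means were 7.49 ± 0.046 and 7.24 ± 0.029 (SD, n = 3 each), a 1.19-fold difference (log2 difference 0.25 ± 0.056 SE, 95% confidence interval 0.12 to 0.39; limma's adjusted p = 0.124).

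Aldh1l2, which draws formyl groups out of the mitochondrial pool as CO2, went the other way. Its log2 values were 4.18, 4.27 and 4.45 in the arrays labelled Myc knockout, against 4.95, 4.77 and 4.89 in controls. The highest value of the arrays labelled Myc knockout was below the lowest control. The means were 4.30 ± 0.14 and 4.87 ± 0.093 (SD, n = 3 each), a 1.48-fold lower level (log2 difference −0.57 ± 0.089 SE, 95% confidence interval −0.78 to −0.36). Limma's adjusted p was 0.0689 and the unadjusted p 0.000487. Its mean level lay at the 62.6 percentile over all genes tested, and its difference stood at the 0.418 percentile of all differences.

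These 3 calls depended on how limma's spread was estimated or on which genes were tested. When the prior variance followed intensity, limma's adjusted p was 0.0212 for Shmt1, 0.0467 for Mthfd1 and 0.0403 for Aldh1l2. Among genes at or above the median level, where all 9 were kept, it was 0.0182, 0.0464 and 0.0213, in the same order. Over all 14 alternatives tried, the adjusted p of limma ran from 0.0182 to 0.210 for Shmt1, from 0.0464 to 0.289 for Mthfd1 and from 0.0213 to 0.229 for Aldh1l2. The trend also brought the total of genes past the threshold to 370 and the level filter to 549, against 105 without them.

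**Figure D2:**
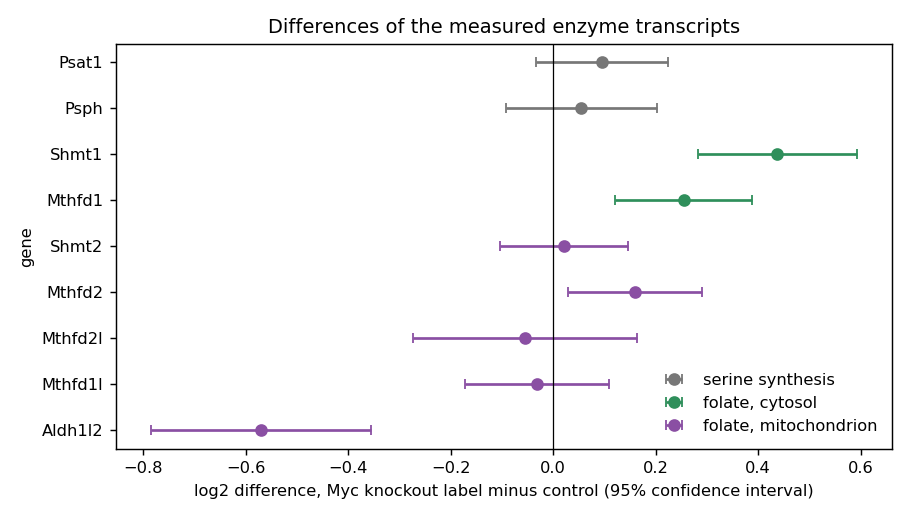
Log2 difference, arrays labelled Myc knockout minus control, of the 9 measured enzyme transcripts (points) with limma's 95% confidence interval (bars), coloured by branch and compartment. The intervals of Shmt1, Mthfd1 and Mthfd2 lie above 0, that of Aldh1l2 lies below 0 and the other 5 include 0.

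The remaining mitochondrial enzymes differed less. Mthfd2, the dehydrogenase and cyclohydrolase induced in proliferating cells, had log2 values of 8.99, 8.93 and 8.91 in the arrays labelled Myc knockout, against 8.77, 8.81 and 8.77 in controls. The groups did not overlap, at means of 8.94 ± 0.040 and 8.78 ± 0.023 (SD, n = 3 each) and a log2 difference of 0.16 ± 0.054 (SE; unadjusted p = 0.0232 and adjusted p = 0.259 in limma). Shmt2, the mitochondrial serine hydroxymethyltransferase gene, had values of 9.81, 9.76 and 9.76 in the arrays labelled Myc knockout, against 9.77, 9.74 and 9.76 in controls. These overlapped, and the 95% confidence interval of the Shmt2 difference ran from −0.10 to 0.15 around 0.021 (adjusted p = 0.875 in limma).

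Mthfd1l, which releases formate from mitochondria, had values of 7.45, 7.45 and 7.51 in the arrays labelled Myc knockout, against 7.45, 7.57 and 7.48 in controls. Its difference was −0.032, with a 95% confidence interval from −0.17 to 0.11 and limma's adjusted p = 0.825. Mthfd2l, a paralogue of Mthfd2 with the same activities, had values of 6.10, 6.26 and 6.09 in the arrays labelled Myc knockout, against 6.21, 6.34 and 6.06 in controls, the widest spread among controls of the 9 genes (SD 0.14). Its difference was −0.054, with an interval from −0.27 to 0.16 (limma's adjusted p = 0.808). For Shmt2, Mthfd1l and Mthfd2l the groups overlapped, and differences inside these intervals could not be seen with 3 arrays per group.

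Of the serine synthesis enzymes, Psat1 had values of 8.43, 8.41 and 8.38 in the arrays labelled Myc knockout, against 8.35, 8.30 and 8.28 in controls. The groups were apart by a narrow margin, and the log2 difference of 0.095 ± 0.054 (SE) had an interval from −0.034 to 0.22 (limma's adjusted p = 0.453). Psph, the last step to serine, had values of 6.25, 6.34 and 6.21 in the arrays labelled Myc knockout, against 6.17, 6.21 and 6.25 in controls. These overlapped, at a log2 difference of 0.054 ± 0.061 (SE; interval −0.093 to 0.20, adjusted p = 0.708 in limma).

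Set by compartment, the cytosolic folate enzymes (2 genes) had a mean log2 difference of 0.35 and the mitochondrial ones (5 genes) a mean of −0.095, a gap of −0.44, mitochondrial minus cytosolic. Without Aldh1l2, a choice made after its value was seen, the mitochondrial mean was 0.024 (4 genes) and the gap −0.32. These means are a description, with no test.

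The same comparison was made within each array for enzymes of matching steps, as the log2 value of the mitochondrial gene minus that of the cytosolic gene. Probes differ in brightness, so only the change of this value between groups can be read. Shmt2 minus Shmt1 was 2.54, 2.64 and 2.52 in the arrays labelled Myc knockout, against 2.94, 3.01 and 2.99 in controls, a change of −0.42 ± 0.042 (SE). All 3 arrays labelled Myc knockout lay below all 3 controls, by more than the range within a group. Mthfd1l minus Mthfd1, both ligases between formate and folate, was −0.050, 0.0081 and −0.025 in the arrays labelled Myc knockout, against 0.20, 0.32 and 0.28 in controls, a change of −0.29 ± 0.039 (SE).

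For the dehydrogenase step, Mthfd2 minus Mthfd1 was 1.49, 1.49 and 1.38 in the arrays labelled Myc knockout, against 1.51, 1.56 and 1.57 in controls. The groups were barely apart, and the change was −0.095 ± 0.039 (SE). Mthfd2l minus Mthfd1 was −1.40, −1.18 and −1.44 in the arrays labelled Myc knockout, against −1.04, −0.91 and −1.14 in controls, a change of −0.31 ± 0.11 (SE). Aldh1l2 minus Aldh1l1, its cytosolic homologue, was 1.37, 1.45 and 1.63 in the arrays labelled Myc knockout, against 1.75, 2.05 and 2.28 in controls, a change of −0.54 ± 0.17 (SE). Aldh1l1 itself had means of 2.82 in the arrays labelled Myc knockout and 2.84 in controls, below the array medians, so this pair says little beyond Aldh1l2. The value was lower in the arrays labelled Myc knockout in all 5 pairs, 3 of which share Mthfd1. The pairs reuse the single-gene differences given above and are not separate findings. Those were 0.44 for Shmt1 and 0.25 for Mthfd1, against 0.021 for Shmt2, −0.032 for Mthfd1l, 0.16 for Mthfd2 and −0.054 for Mthfd2l. By exact permutation, two-sided, p = 0.1 for each of the 5, also after Benjamini-Hochberg adjustment, the smallest that 3 against 3 arrays allow, so no pair could reach the threshold.

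**Figure D3:**
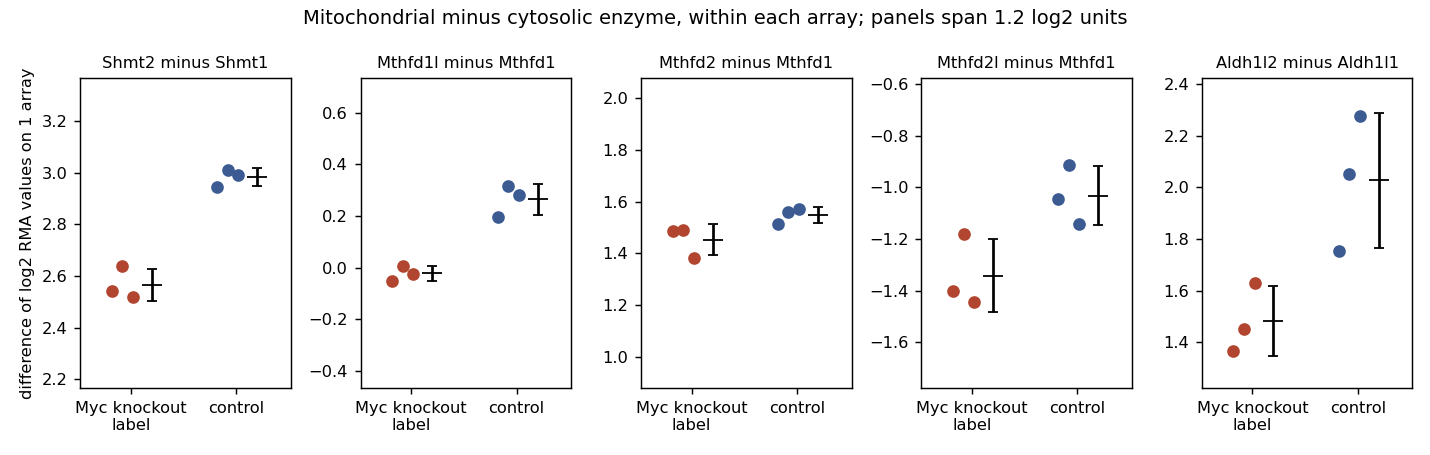
Log2 value of the mitochondrial enzyme minus that of the cytosolic enzyme on the same array (points), with mean ± SD (n = 3 arrays per group), arrays labelled Myc knockout left and controls right. In each of the 5 pairs the arrays labelled Myc knockout lie below the controls, with the narrowest gap for Mthfd2 minus Mthfd1.

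Other genes around the pathway were taken from 7 lists with 72 entries, of which 65 were measured. In limma 0 of the 65 passed over all genes, beside 0.453% of all genes, and at an unadjusted p under 0.05 the lists together held 8 higher and 7 lower genes, beside 6.97% of all genes higher and 7.91% lower. In de novo purine synthesis, which takes up formyl groups at the GART and ATIC steps, 5 of 6 genes had a positive difference with groups apart, against 9.25% of all genes apart and higher. The median difference was 0.17, and an unadjusted p under 0.05 was reached by 3, all higher (6.97% of all genes). Gart was at 8.12, 8.22 and 8.06 in the arrays labelled Myc knockout, against 7.94, 7.81 and 7.87 in controls (log2 difference 0.26 ± 0.068 SE, adjusted p = 0.172 in limma). Adsl and Ppat, also enzymes of this route, differed by 0.22 ± 0.058 and 0.24 ± 0.078 (SE).

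In folate reduction, transport and retention, 7 of 11 measured genes had a positive difference, beside 52.2% of all genes, and the median was 0.019. Slc19a1, the reduced folate carrier gene, was at 6.08, 5.98 and 6.00 in the arrays labelled Myc knockout, against 5.79, 5.55 and 5.91 in controls (log2 difference 0.27 ± 0.10 SE, adjusted p = 0.284 in limma). Ggh, whose hydrolase trims the glutamate tail that keeps folate in cells, differed by −0.25 ± 0.10 (SE), and Folr2, a folate receptor gene near the lower quartile, by 0.18 ± 0.097 (SE). An unadjusted p under 0.05 was reached by 1 higher gene and 1 lower gene, beside 6.97% and 7.91% of all genes. Of the 4 glycine cleavage genes, which break glycine down in mitochondria, Gcsh differed by 0.49 ± 0.17 (SE; groups apart), Gldc by −0.14 ± 0.12 and Dld by 0.093 ± 0.079. Their median was 0.0012.

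Of the 11 carriers of serine and glycine, 8 had a negative difference and 3 a positive one, beside 52.2% of all genes positive, and the median was −0.027. The unadjusted p was under 0.05 for 0 higher and 3 lower genes, beside 7.91% of all genes lower. Slc6a9, a plasma membrane glycine carrier, was at 7.39, 7.35 and 7.35 in the arrays labelled Myc knockout, against 7.64, 7.46 and 7.61 in controls (log2 difference −0.21 ± 0.068 SE, adjusted p = 0.247 in limma). The sideroflexin genes Sfxn3 and Sfxn2 differed by −0.15 ± 0.056 and −0.27 ± 0.10 (SE). Sfxn1, the main mitochondrial serine carrier, differed by 0.13 ± 0.087 (SE).

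Of 11 methionine cycle and transsulfuration genes 8 were positive (median 0.070), beside 52.2% of all genes, and an unadjusted p under 0.05 was reached by 0 higher genes and 1 lower gene, beside 6.97% and 7.91% of all genes. That 1 was Ahcy, the S-adenosylhomocysteine hydrolase gene (−0.38 ± 0.13 SE), whose means of 3.14 in the arrays labelled Myc knockout and 3.53 in controls lay near the array medians. Cbs and Mat2b differed by 0.17 ± 0.084 and −0.12 ± 0.065 (SE). A further list held 5 measured genes, Srr, Sptlc1, Sptlc2, Sptlc3 and Cdo1. Cdo1 encodes cysteine dioxygenase, which does not use serine, and its difference of −0.053 was the list's median. Srr, the serine racemase gene, was at 4.60, 4.99 and 4.88 in the arrays labelled Myc knockout, against 5.37, 5.31 and 5.56 in controls (log2 difference −0.59 ± 0.12 SE, adjusted p = 0.108 in limma). Sptlc3 and Sptlc2, subunits of the enzyme that starts sphingolipid synthesis from serine, differed by 0.31 ± 0.10 and −0.11 ± 0.070 (SE), Sptlc3 from near the lower quartile.

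ATF4 is known to drive Phgdh, Psat1, Shmt2, Mthfd2 and Aldh1l2 together when amino acids are short. Atf4 was at 7.96, 7.93 and 7.99 in the arrays labelled Myc knockout, against 7.93, 7.90 and 7.93 in controls, values that met at the edge (log2 difference 0.040 ± 0.052 SE, adjusted p = 0.753 in limma). Asns, the asparagine synthetase gene and a classical ATF4 target, differed by 0.068 ± 0.058 (SE). Of the 17 measured genes of this list 11 were positive (median 0.057), beside 52.2% of all genes, and an unadjusted p under 0.05 was reached by 2 higher genes and 1 lower gene, beside 6.97% and 7.91% of all genes. The lower gene was Ddit3, which encodes the stress factor CHOP, at 5.27, 5.26 and 5.39 in the arrays labelled Myc knockout, against 5.67, 5.61 and 5.84 in controls (log2 difference −0.40 ± 0.079 SE, adjusted p = 0.0999 in limma). Nupr1 and Ppp1r15a differed by 0.21 ± 0.060 and 0.31 ± 0.11 (SE).

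**Figure D4:**
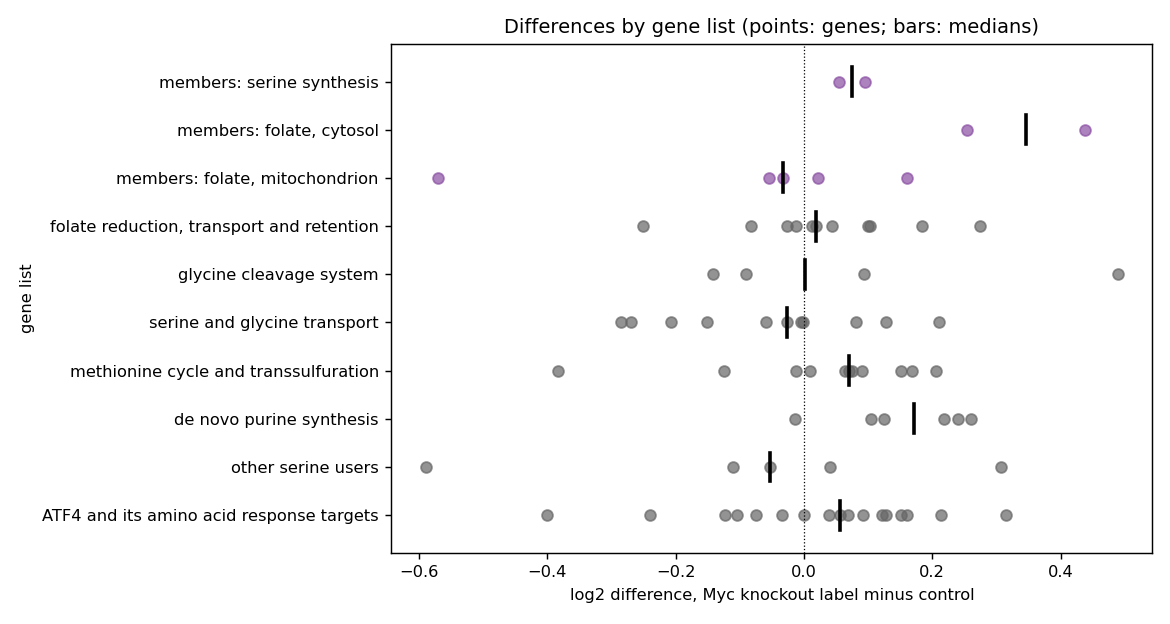
Log2 difference, arrays labelled Myc knockout minus control, of each measured gene (points) with the median of its list (bars), for the enzymes by branch and for 7 lists of related genes. The cytosolic folate enzymes and the purine synthesis genes lie furthest to the right by their medians of 0.35 and 0.17, and Aldh1l2 and Srr furthest to the left.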

How the data were processed

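The 6 Affymetrix arrays, 3 per group, measured total RNA, and the titles gave the groups. The deposited values are log2 values from RMA, run by the authors per the submitters' processing notes, which also name limma 3.14.4. RMA corrects background, equalises the arrays' distributions and summarises probes, so it hides any shift common to all transcripts. No genome build or array version is given in the sources used here. Arrays have no read depth, and their number limits the precision.

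Of 25206 probe sets, 23185 had 1 gene symbol in the platform annotation, and the other 2021 had none or several. The named ones were tested as genes with lmFit and eBayes of limma 3.58.1, under R 4.3.3 (no covariate, no filter), two-sided, as arrays labelled Myc knockout minus control, with Benjamini-Hochberg adjustment over all of them. The fitting code was run on simulated data with independent arrays, a check of the code that says nothing about the calls made here. Within-array pairs were tested by exact permutation. Promoters were read from a RefSeq table (GRCm38.p6), and Aldh1l2 was not in it. Whether the replicate numbers pair the arrays is not known. Deviations of same-numbered arrays correlated at −0.070, −0.012 and −0.017 over genes, which cannot show that the arrays were unpaired. No 2 arrays shared more than 7.44% of values.

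Genes named were the listed enzymes, Myc, Aldh1l1, Atf4, Asns and of each pathway list the 3 with the smallest p. Sfxn1, Sptlc1, Cdo1 and the cell markers were named after their values were seen. The members and lists were chosen with earlier results of these data known. The fit was repeated with array weights, other prior variances, 2 scalings, a level filter, all probe sets, the replicate number as a block and each array left out. Figures were drawn with matplotlib 3.10.9.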

Additional observations from a re-analysis of the deposited data

How the results depend on the processing

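Under 14 alternatives Psat1, Psph, Shmt1, Mthfd1, Mthfd2 and Aldh1l2 kept their direction, with log2 differences from 0.41 to 0.48 for Shmt1, 0.23 to 0.28 for Mthfd1 and −0.64 to −0.51 for Aldh1l2. These 3 had an unadjusted p under 0.05 in limma in all 14, and Mthfd2 in 12, the exceptions being the replicate block and median centring. When the prior variance followed intensity, 3 of the enzymes passed over all genes and 370 genes did in all; among genes at or above the median level 3 and 549 did. The other alternatives passed 0 of the enzymes. The replicate block brought the genes past the threshold to 0, against 105, and whether the numbers pair the arrays is not known. Within that block an exact sign-flip permutation test of each pair of enzymes gave p = 0.25, the smallest it allows. Leaving out each array in turn left 0 to 2 genes past the threshold and 0 of the enzymes. The median log2 difference of the enzymes was 0.030 under median centring, 0.096 under cyclic loess, 0.030 to 0.083 with 1 array left out (lowest when Myc knockout replicate 2 was dropped, highest when replicate 3 was) and, a choice made after seeing the data, 0.075 without Aldh1l2. The mitochondrial minus cytosolic gap ranged from −0.48 to −0.41 in the 14 alternatives and was −0.32 without Aldh1l2. Psph was at 0.017 without Myc knockout replicate 2, 0.083 without Myc knockout replicate 3, 0.033 without control replicate 1, 0.030 under median centring and 0.096 under cyclic loess. Mthfd2 minus Mthfd1 was −0.060 when Myc knockout replicate 3 was dropped. The sign turned for Shmt2 under median centring (−0.0032). With control arrays left out in turn, Mthfd2l ran from −0.13 to 0.013 and Mthfd1l from −0.057 to 0.000996, both positive only without control replicate 2. The single-gene values lie within the intervals given above, while no interval was given for the pairs, the median or the gap. The causes of these changes were not tested.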
